A study of Mus musculus with 4 samples.

Results

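The genes described here are 50 genes of the cell division cycle, measured in primary microglia from newborn male CD1 mice. They were chosen by name, as genes of S phase and mitosis together with the cyclins, kinases and inhibitors that drive or restrain the cycle, and the rule uses no measured value. All 50 were found among the 54532 genes of the count tables, and all 50 were among the 13811 protein-coding genes that reached a sum of 10 counts over the 4 libraries, which were the genes tested. The comparison asks whether RNA of these genes differed after the flavanol epigallocatechin gallate (EGCG) was added.

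The 4 libraries came from cultures of the CD1 strain, and the labels name no mutant allele. The 2 EGCG libraries were from microglia given 1 µM EGCG for 24 h, and the 2 Vehicle libraries were from microglia given the solvent DMSO for the same 24 h. All cultures were in serum-free medium, which the study supplemented with insulin, IL-34, TGFβ2, GM-CSF and cholesterol, and all had earlier been expanded with serum and GM-CSF in a mixed glial culture from which the astrocyte layer was lifted off with trypsin. How many pups went into a culture is not given in the sources used here. Each replicate number holds 1 Vehicle and 1 EGCG library (called Vehicle 1, EGCG 1, Vehicle 2 and EGCG 2 below) and was deposited as a table of its own, so a difference between replicate numbers can be between cultures or between tables, and these cannot be told apart. Total counts per library ran from 33805071 to 54970300, the highest being EGCG 2. The chi-square difference over genes, set against counting error, was 11.9 and 9.84 per gene between the libraries of a replicate number, against 264 between Vehicle 1 and Vehicle 2 and 263 between EGCG 1 and EGCG 2, so no library was a copy of another. The microglial markers were present in every library, with a summed level of 5156 to 6711 CPM (counts-per-million units, scaled to library size by the TMM method) over 10 genes.

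A cell that divides first passes from G1 into S phase, when cyclin D with Cdk4 and cyclin E with Cdk2 release the E2F factors from the retinoblastoma proteins. Origins of replication that were licensed with the Mcm2 to Mcm7 helicase are then fired, and later cyclin B with Cdk1 drives mitosis, after which the anaphase-promoting complex destroys the mitotic proteins. The genes of mitosis are switched on late in the cycle by B-Myb and FoxM1, and the CDK inhibitors p21, p27 and p16 hold the kinases back. Microglia renew themselves by division in the adult brain and divide in culture in response to colony-stimulating factors.

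No cell division gene passed the test for a difference between EGCG and Vehicle. Of the 50 genes, 0 had an unadjusted P under 0.05 in the quasi-likelihood test of edgeR with treatment as the only term, where 16 of all genes tested did (0.116%). The smallest P among the 50 was 0.292, for Ccnd1, and 0 had an adjusted P under 0.1 in edgeR or in DESeq2. The median log2 fold change (EGCG against Vehicle) was 0.05 over the 50 genes and 0.01 over all genes tested. With 2 libraries per group these P-values measure the spread between these cultures, and a P above the threshold does not show that levels were equal. This fit called so small a share of all genes tested (0.116%) that 0 of 50 says little about EGCG.

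The spread was large because the replicate numbers differed more than the treatments did. The standard error of the log2 fold change was 0.13 for Rrm1, whose 4 libraries were alike, and 1.38 for Kif23, whose 2 replicate numbers lay far apart. When edgeR was run with a block for the replicate number, 2 of the 50 genes had an unadjusted P under 0.05, both higher with EGCG. Of the 13811 genes tested, 444 had such a P in either direction, and 2.12% were called higher. The 2 of the 50 were Ccnd1, with a log2 fold change of 0.21 (unadjusted P of 0.0163), and Pcna, with 0.12 (unadjusted P of 0.0488). Both had an adjusted P of 0.995. DESeq2 called 0 of the 50 at an unadjusted P under 0.05, with or without the block.

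The difference between EGCG and Vehicle was also taken within each replicate number. The log2 difference in CPM was above 0 in both replicates for 16 of 50 genes (32%, against 29.9% of all genes tested) and below 0 in both for 4 (8%, against 20.6%), and the other 30 went opposite ways. The 4 were Cenpa, Kif20a, Mybl2 and Cdkn1b. Mcm6 was the only gene of the 50 for which both EGCG libraries lay above both Vehicle libraries (6.39% of all genes tested did), and 0 had both EGCG libraries below (5.51%). The median difference was -0.03 in replicate 1 and 0.23 in replicate 2, while over all genes tested it was 0.03 and 0.00.

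In replicate 2, the cell division genes lay mostly above Vehicle in the EGCG library. The log2 difference exceeded 0.5 for 13 of the 50 genes (26%), where it did so for 7.28% of all genes tested, and 0 of the 50 were lower by more than 0.5 (4.72% of all). In replicate 1, 0 of the 50 were higher by more than 0.5 (4.83% of all) and 2 were lower by more than 0.5 (9.38% of all), namely Cdc6 and Rrm2. The 13 genes were thinly counted, with 5 to 121 counts each in Vehicle 2, and for 6 of them the 95% counting interval of the ratio lay above 0 on the log2 scale. Such an interval covers the sampling of reads in 2 libraries only and not the spread between cultures. EGCG 2 was also the deepest library, with an effective size 1.51 times that of Vehicle 2, and the part of depth in these differences was not tested.

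**Figure D1:**
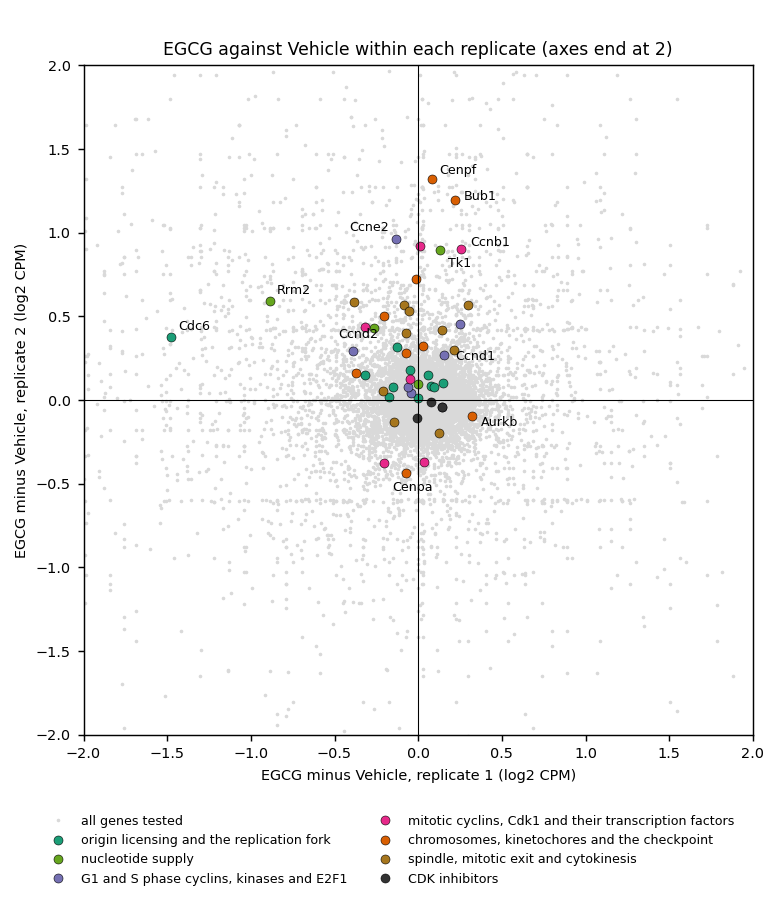
Difference between EGCG and Vehicle in replicate 1 (horizontal axis) and in replicate 2 (vertical axis), both in log2 CPM, for all genes tested (grey) and the 50 cell division genes (coloured by role), with axes ending at 2 so that genes beyond are not drawn. Most coloured points lie above the horizontal zero line and on either side of the vertical one, with Cenpf and Bub1 highest and Cdc6 farthest left.

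Levels between genes were compared per kilobase of gene length (RPKM). The cell division genes spanned a wide range, from 0.0344 RPKM for Cenpf to 61.5 RPKM for Cdkn1a as means over the 4 libraries, and 25 of the 50 were under 1 RPKM. The median was 1.03 RPKM, against 4.28 RPKM over all genes tested. Only 6 genes exceeded 10 RPKM, and they were the CDK inhibitors Cdkn1a, Cdkn2a and Cdkn1b, the replication clamp Pcna, Cdk4 and Ccnd1. By role, the median was highest for the CDK inhibitors at 44.7 RPKM, then 4.29 RPKM for origin licensing and the fork and 3.82 RPKM for the G1 and S phase cyclins and kinases, and it was between 0.376 and 0.596 RPKM for the 4 other roles. The CDK inhibitors, Pcna, Cdk4 and Ccnd1 were thus the abundant ones. Other G1 and S phase cyclins and kinases and E2f1 were lower, from 0.212 RPKM for Ccne2 to 7.52 for E2f1. Among the 50, genes needed for mitosis itself were at low levels in all 4 libraries, with Cdk1 the highest at a mean of 2.88 RPKM. Some mitosis genes outside the 50 were higher, such as Incenp at a mean of 15.6 RPKM.

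**Figure D2:**
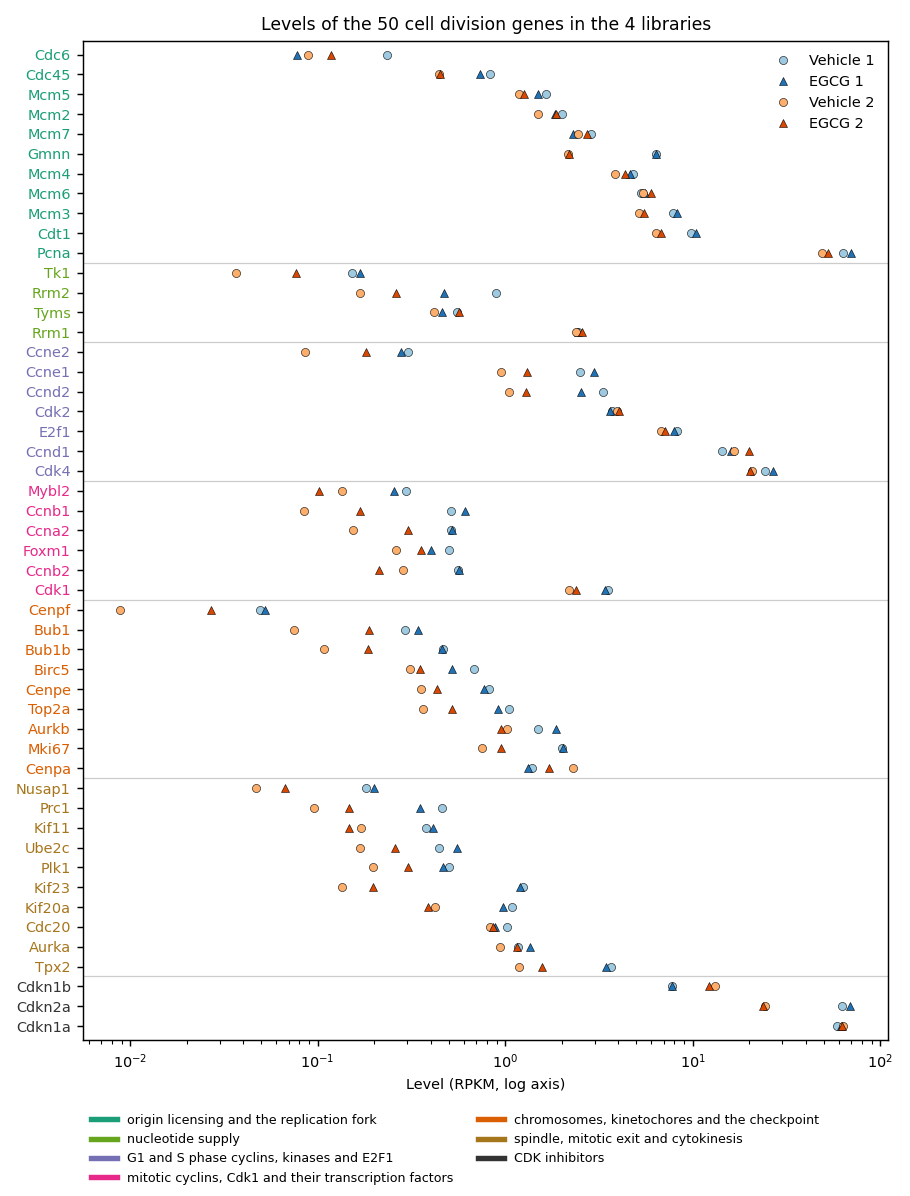
Level of each of the 50 genes in RPKM on a log axis, 1 row per gene grouped by role, with circles for Vehicle, triangles for EGCG, blue for replicate 1 and orange for replicate 2. The CDK inhibitors and Pcna lie at the right, and for most mitotic genes both orange points lie left of both blue points.

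Origin licensing and the replication fork were represented by 11 genes, and 0 passed the edgeR test without the block. Pcna, the sliding clamp that holds DNA polymerase on its template (chromosome 2, 132249162 to 132253314 on GRCm38), was at 152 CPM in Vehicle 1, 169 in EGCG 1, 118 in Vehicle 2 and 127 in EGCG 2. EGCG was above Vehicle in each replicate, by 0.15 and 0.10 on the log2 scale, although both libraries of replicate 2 were below both of replicate 1. The counts of Pcna are uncertain because the annotated pseudogene Pcna-ps2, which matches its transcript at 99.2% identity over 781 bases, held between 1786 and 2804 counts of its own per library. Summed with this pseudogene, Pcna differed by 0.15 and 0.09.

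The licensing factor Cdt1, which loads the Mcm helicase, was at 30.8 CPM in Vehicle 1, 32.9 in EGCG 1, 20.1 in Vehicle 2 and 21.2 in EGCG 2. Its inhibitor geminin (Gmnn), which accumulates from S phase to mitosis, was at 9.39 CPM in both Vehicle 1 and EGCG 1, 3.16 in Vehicle 2 and 3.19 in EGCG 2. Gmnn was thus at nearly the same level in Vehicle and EGCG within each replicate, with log2 differences of 0.00 and 0.01, and was lower in replicate 2 by differences of -1.55 (Vehicle) and -1.54 (EGCG). Of the helicase subunits, Mcm3 was at 29.5, 31.1, 19.5 and 20.6 CPM in Vehicle 1, EGCG 1, Vehicle 2 and EGCG 2. Mcm6 was at 24.9, 25.9, 25.3 and 28.0 CPM in the same order, a log2 fold change of 0.10 (standard error 0.13, unadjusted P of 0.483 in edgeR). The 6 Mcm genes are subunits of 1 complex, yet the difference between the replicate numbers ranged in Vehicle from -0.60 for Mcm3 to 0.02 for Mcm6. The licensing ATPase Cdc6 had the largest difference within replicate 1, with 40 counts in Vehicle 1 and 13 in EGCG 1, a log2 ratio of -1.59 (95% counting interval -2.61 to -0.65). In replicate 2 it had 17 counts in Vehicle and 34 in EGCG, a ratio of 0.41 (-0.47 to 1.34), so the direction was not shared.

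Nucleotide supply was represented by 4 genes, which differed among themselves. Rrm1, the large subunit of ribonucleotide reductase, was at 26.9 CPM in Vehicle 1 and EGCG 1, 26.4 in Vehicle 2 and 28.2 in EGCG 2. Rrm2, the small subunit that is made in S phase, was at 2.47, 1.31, 0.464 and 0.725 CPM in Vehicle 1, EGCG 1, Vehicle 2 and EGCG 2. Subunits of the same enzyme thus stood apart, Rrm1 at nearly the same level in all libraries and Rrm2 lower in EGCG than in Vehicle in replicate 1 (-0.89) and higher in replicate 2 (0.59). Thymidylate synthase (Tyms) was at 3.38, 2.81, 2.54 and 3.44 CPM. Thymidine kinase 1 (Tk1), which salvages thymidine, had 26, 28, 7 and 22 counts (0.792, 0.874, 0.191 and 0.399 CPM).

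The G1 and S phase group held 7 genes, led by Cdk4 and Ccnd1. Ccnd1 encodes cyclin D1, the growth factor-responsive partner of Cdk4, and lies on chromosome 7 from 144929931 to 144939925. It was at 67.3 CPM in Vehicle 1, 75.0 in EGCG 1, 78.0 in Vehicle 2 and 94.0 in EGCG 2. EGCG was above Vehicle in both replicates, by 0.16 and 0.27, but EGCG 1 lay below Vehicle 2, so the groups overlapped and their means were 72.6 ± 7.57 and 84.5 ± 13.4 CPM (SD, n = 2 each). An exon of Ccnd1 overlaps the gene LTO1 on the opposite strand, which held 1141 to 1644 counts per library against 2207 to 5185 for Ccnd1. The library preparation kept strand, but whether the counting used it is not given in the sources used here.

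Cyclin D2 (Ccnd2) showed another pattern than cyclin D1. It was at 31.4 CPM in Vehicle 1, 23.9 in EGCG 1, 9.88 in Vehicle 2 and 12.1 in EGCG 2, lower with EGCG in replicate 1 (-0.39), higher in replicate 2 (0.29), and lower in replicate 2 in both treatments. Cdk4 was at 79.1, 87.3, 67.5 and 65.6 CPM in Vehicle 1, EGCG 1, Vehicle 2 and EGCG 2. Cdk2, the kinase that works with cyclins E and A, was at 23.1, 22.4, 24.4 and 25.1 CPM, and the transcription factor E2f1 was at 26.1, 25.0, 21.3 and 22.5. The kinases and E2f1 varied little, while the E cyclins that activate Cdk2 did not hold their level. Ccne1 was at 6.64, 7.90, 2.54 and 3.50 CPM, and Ccne2 had 35, 31, 11 and 35 counts.

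Mitotic cyclins, Cdk1 and their transcription factors numbered 6, and all 6 were lower in replicate 2 in both treatments (40.7% of all genes tested). Cdk1, the kinase that drives entry into mitosis, was at 17.4 CPM in Vehicle 1, 16.8 in EGCG 1, 10.9 in Vehicle 2 and 11.8 in EGCG 2. Cyclin B1 (Ccnb1) had 71 counts in Vehicle 1, 83 in EGCG 1, 13 in Vehicle 2 and 39 in EGCG 2 (2.16, 2.59, 0.355 and 0.707 CPM). Its level was 0.26 higher with EGCG in replicate 1 and 1.00 higher in replicate 2 on the counting scale (95% counting intervals -0.22 to 0.74 and 0.06 to 2.03). The pseudogene Ccnb1-ps, at 99.2% identity over 1287 bases, held 2 to 12 counts per library, which was up to 23.1% of Ccnb1. Summed with its pseudogene copies, Ccnb1 differed by 0.03 in replicate 1 and 0.71 in replicate 2. Cyclin A2 (Ccna2), needed for S phase and entry into mitosis, had 69, 68, 23 and 68 counts. Cyclin B2 (Ccnb2) had 28, 28, 16 and 18 counts, Foxm1 had 95, 74, 55 and 113, and Mybl2, which encodes B-Myb, had 45, 38, 23 and 26.

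Of 9 genes of chromosomes, kinetochores and the spindle checkpoint, 8 were lower in replicate 2 in both treatments (40.7% of all genes tested). Mki67, whose Ki-67 protein coats mitotic chromosomes and is the usual stain for dividing cells (chromosome 7, 135689784 to 135716361), was at 20.2 CPM in Vehicle 1, 20.6 in EGCG 1, 7.61 in Vehicle 2 and 9.53 in EGCG 2. The ratio of EGCG to Vehicle was 0.03 on the log2 scale in replicate 1 (95% counting interval -0.13 to 0.19) and 0.32 in replicate 2 (0.11 to 0.54). Its log2 fold change for EGCG was 0.12 (standard error 0.65, unadjusted P of 0.867 in edgeR), or 0.17 (standard error 0.11, unadjusted P of 0.173) with the block. Top2a, the topoisomerase that untangles chromosomes, was at 9.48, 8.21, 3.30 and 4.69 CPM in Vehicle 1, EGCG 1, Vehicle 2 and EGCG 2. The Aurora B kinase (Aurkb), which corrects faulty spindle attachments, was at 4.39, 5.49, 3.001 and 2.81 CPM. Cenpa was the exception among the 9. This histone variant marks the centromere, and its RNA was at 8.20 CPM in Vehicle 1, 7.80 in EGCG 1, 13.5 in Vehicle 2 and 10.01 in EGCG 2.

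The checkpoint kinase Bub1 had 42 counts in Vehicle 1, 48 in EGCG 1, 12 in Vehicle 2 and 45 in EGCG 2. Its partner Bub1b had 65, 63, 17 and 44, and the kinetochore protein gene Cenpf had 25, 26, 5 and 23. For these 3 genes Vehicle 2 was the lowest library, and the ratio of EGCG to Vehicle in replicate 2 was 1.61 on the log2 scale for Cenpf (95% counting interval 0.18 to 3.36) and 1.32 for Bub1 (0.37 to 2.37). In replicate 1 both intervals held 0.

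The spindle, mitotic exit and cytokinesis group held 10 genes, and all 10 were lower in replicate 2 in both treatments (40.7% of all genes tested). Kif23, a motor of the central spindle that is needed to part the daughter cells, lies on chromosome 9 from 61915905 to 61946774. It had 322 counts in Vehicle 1, 303 in EGCG 1, 39 in Vehicle 2 and 86 in EGCG 2 (9.81, 9.46, 1.06 and 1.56 CPM). This was the widest gap between replicate numbers among the 50 genes, with log2 differences of -3.15 in Vehicle and -2.56 in EGCG. Its partner Prc1, which bundles the microtubules of the central spindle, had 125, 93, 29 and 67 counts (3.81, 2.90, 0.791 and 1.21 CPM). Nusap1, another microtubule-binding protein, had 24, 26, 7 and 15 counts (0.731, 0.811, 0.191 and 0.272 CPM). Kif20a, a further cytokinesis motor, had 135, 119, 59 and 81 counts (4.11, 3.71, 1.61 and 1.47 CPM), with CPM alike within each replicate.

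The most abundant gene of this group was Tpx2, the activator of Aurora A, at 17.1 CPM in Vehicle 1, 16.2 in EGCG 1, 5.57 in Vehicle 2 and 7.38 in EGCG 2. Aurka itself, the Aurora A kinase of the spindle poles, was at 2.96, 3.43, 2.37 and 2.94 CPM, and Cdc20, which activates the anaphase-promoting complex, was at 1.92, 1.65, 1.56 and 1.61. Tpx2 differed between the replicate numbers by more than 1 (log2) in both treatments, whereas Aurka differed by -0.31 in Vehicle and -0.22 in EGCG and Cdc20 by -0.30 and -0.04. Cdc20 overlaps Elovl1 on the opposite strand, which held 3594 to 6133 counts per library against 53 to 89 for Cdc20. In all, 16 of the 50 genes have an exon that overlaps a gene on the opposite strand. In Vehicle 2 the overlapping gene held 883 counts against 11 for Ccne2 (Ints8) and 523 against 23 for Ccna2 (Exosc9). It held 1080 against 59 for Kif20a (Cdc23), 232 against 29 for Prc1 (Rccd1) and 70 against 7 for Tk1 (Afmid). For others it held fewer, such as 8 against 8232 for Cdkn1a.

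None of the 3 CDK inhibitors passed the test for EGCG. Cdkn1a, which encodes the p53 target p21 (chromosome 17, 29090976 to 29100727), was the most abundant of the 50 genes per length and was at 208 CPM in Vehicle 1, 219 in EGCG 1, 225 in Vehicle 2 and 223 in EGCG 2. Its log2 fold change was 0.03 (standard error 0.14, unadjusted P of 0.830 in edgeR). Cdkn1b, which encodes p27, was at 35.4, 35.3, 59.7 and 55.4 CPM in Vehicle 1, EGCG 1, Vehicle 2 and EGCG 2, higher in replicate 2. Cdkn2a was at 73.0, 80.6, 28.5 and 27.7 CPM, lower in replicate 2. The locus Cdkn2a gives rise to p16 and p19 transcripts, which a count per gene does not separate. The 3 genes thus did not differ alike between the replicate numbers, with Cdkn1b higher and Cdkn2a lower in replicate 2 and Cdkn1a nearly level.

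**Figure D3:**
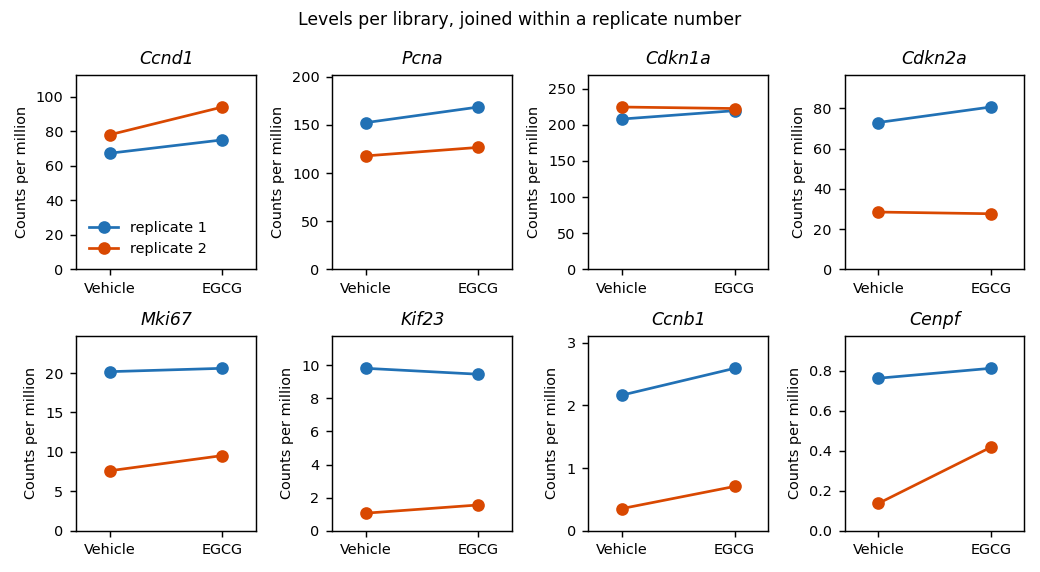
Levels in CPM of 8 cell division genes in Vehicle and EGCG, with a line joining the libraries of a replicate number (blue for replicate 1, orange for replicate 2) and axes starting at 0. For Cdkn2a, Mki67, Kif23 and Ccnb1 the lines lie far apart, and for Ccnd1 and Pcna both lines slope upwards.

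Between the replicate numbers the cell division genes differed together. In 15 of the 50 genes (30%) replicate 2 was lower in both Vehicle and EGCG by a log2 difference beyond 1, where this held for 7.73% of all genes tested, and 0 of the 50 were higher by more than 1 in both (4.31% of all). The 15 were Kif23, Ccnb1, Prc1, Bub1b, Tk1, Nusap1, Tpx2, Gmnn, Mki67, Ccne1, Cdkn2a, Kif20a, Ube2c, Kif11 and Mybl2. With 1 culture per number and treatment this is a description with no test. At any size of difference, 39 of the 50 were lower in replicate 2 in both treatments (40.7% of all genes tested) and 6 were higher (42.2%). The median difference was -1.08 in Vehicle and -0.66 in EGCG, while over all genes tested it was 0.00 and 0.01. In bulk RNA, fewer dividing cells and less RNA of these genes per cell cannot be told apart.

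The difference between the replicate numbers varied with the role of the gene. The median was -1.32 in Vehicle and -1.18 in EGCG for the spindle and cytokinesis genes and -1.40 and -0.84 for the chromosome and checkpoint genes. For origin licensing and the fork it was -0.47 and -0.25, and for the G1 and S phase genes -0.29 and -0.41. Nucleotide supply had -1.10 and -0.37, the mitotic cyclins, Cdk1 and their transcription factors had -0.997 and -1.002, and the CDK inhibitors had 0.11 and 0.02. The difference of the EGCG pair lay above that of the Vehicle pair in 39 of the 50 genes, against 44.5% of all genes tested. By construction this equals an EGCG minus Vehicle difference that was larger in replicate 2 than in replicate 1. Across the 50 genes the Vehicle and EGCG differences correlated at r = 0.81, against r = 0.64 across all genes tested, where the points share the 4 libraries and so are not independent.

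**Figure D4:**
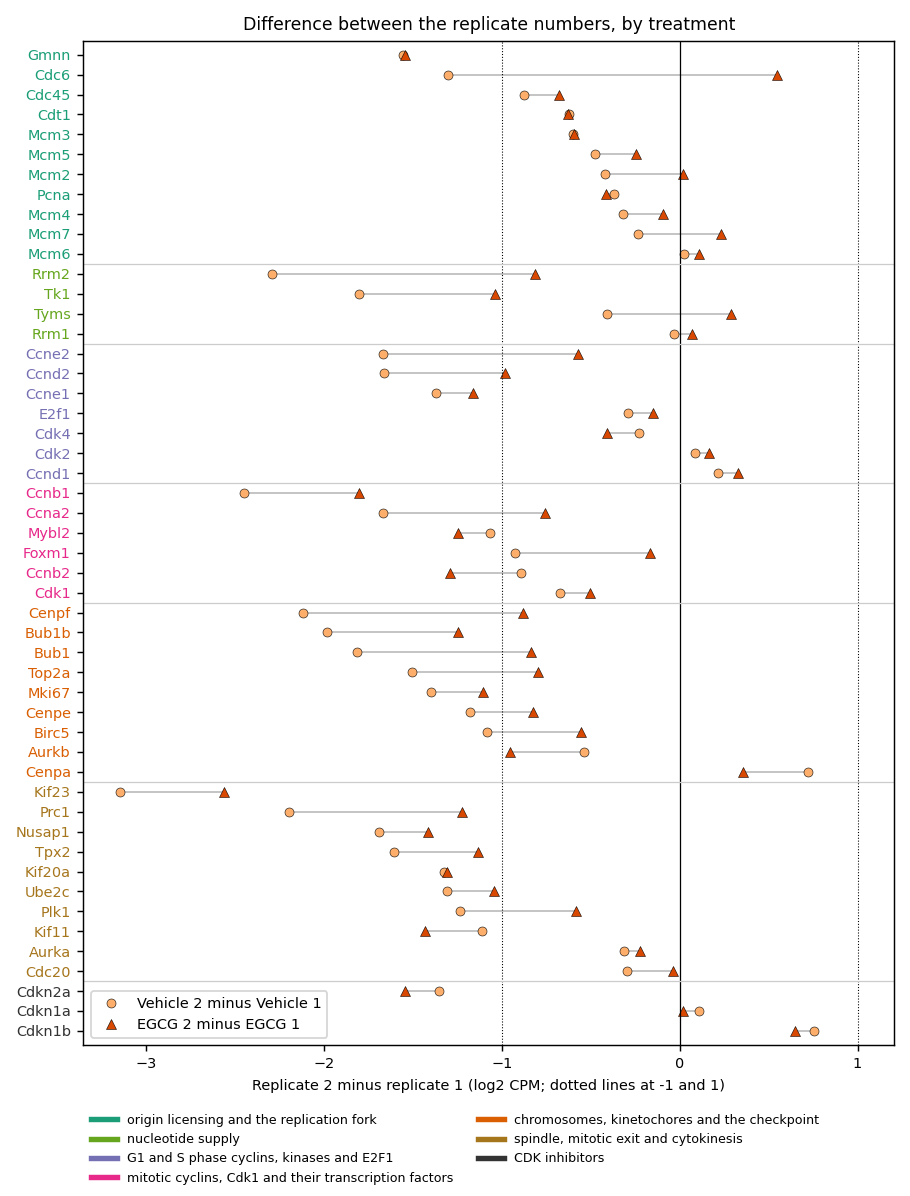
Difference between replicate 2 and replicate 1 in log2 CPM for each of the 50 genes, as circles for the Vehicle pair and triangles for the EGCG pair, joined by a grey line, with dotted lines at -1 and 1. Mitotic genes lie to the left with Kif23 farthest at -3.15, while Mcm6, Rrm1, Cdk2 and Cdkn1a lie near 0 and Cenpa and Cdkn1b to the right.

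Markers of other cell types that a mixed glial culture can hold were summed in each library. The summed level of 10 stromal markers was 463 CPM in Vehicle 1, 5.90 in EGCG 1, 163 in Vehicle 2 and 179 in EGCG 2. The collagen genes Col1a1, Col1a2 and Col3a1 made up most of it in the other 3 libraries, while in EGCG 1 they were each under 0.2 CPM and Pdgfra gave most of the sum. Between Vehicle 1 and EGCG 1, the log2 difference was above 0 for 22 of the 50 genes (8084 of the 13811 genes tested). Mki67 went from 662 to 660 counts, Cdc6 from 40 to 13, Rrm2 from 81 to 42 and Ccnd2 from 1030 to 767. Aurkb went from 144 to 176, Ccne1 from 218 to 253 and Ccnd1 from 2207 to 2402. The summed level of 10 astrocyte markers was 14.8 to 24.0 CPM, with Gfap under 1 CPM in every library, and that of 10 oligodendrocyte lineage markers 152 to 186, mostly from Cspg4, Mbp and Cnp, with Mog at 0 counts in 3 libraries. The summed level of 8 endothelial markers was 183 and 181 CPM in replicate 1 and 73.2 and 81.5 in replicate 2, with Cldn5 and Emcn at 0 in all 4. Flt1 supplied most of it, at 175 CPM in both libraries of replicate 1 and at 53.3 and 64.9 in replicate 2, whereas Pecam1 was at 0.0610 and 0.0936 CPM in replicate 1 and at 15.8 and 13.4 in replicate 2. Single microglial markers differed between the replicate numbers too, Itgam from 404 and 417 CPM in replicate 1 to 169 and 168 in replicate 2 and Csf1r from 1195 and 1264 to 2373 and 2403. The part of any of these in the difference between the replicate numbers was not tested. Nor was the part of the stromal difference in the differences between EGCG 1 and Vehicle 1, and the 2 cannot be told apart within that pair.

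**Figure D5:**
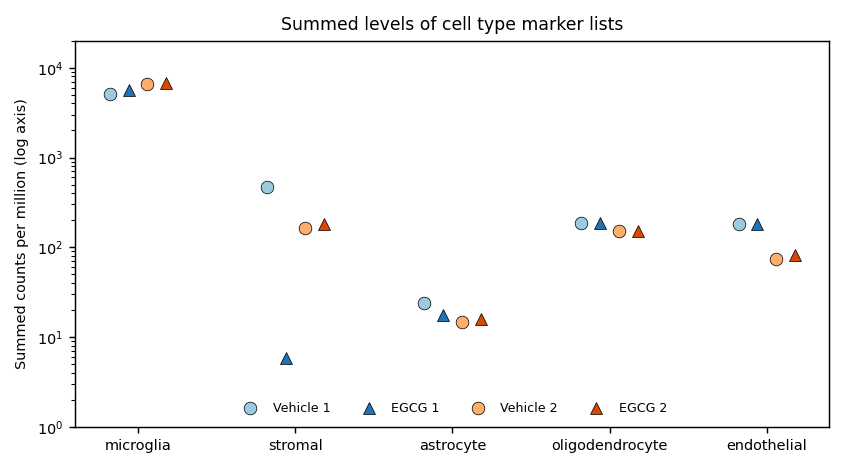
Summed CPM of 5 lists of cell type markers on a log axis, with circles for Vehicle, triangles for EGCG, blue for replicate 1 and orange for replicate 2. The microglial sum lies above all others in every library, and the stromal sum of EGCG 1 lies far below those of the other 3 libraries.

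The promoters of the cell division genes were read because so many of these genes differed together. Windows of 300 bases, from 250 before to 50 after the start of transcription, were taken from the RefSeq table for GRCm38.p6, which holds 44 windows for 40 of the 50 genes. Ccna2, Foxm1, Tpx2, Ccnd1, Kif20a, Ccnd2, Gmnn, Ccne2, Mcm4 and Aurkb had no window there. The searched letters, on both strands, were CCAAT for the box of that name, which binds NF-Y, and TTTGAA for the cell cycle homology region (CHR) bound by the DREAM and B-Myb complexes. An E2F site was counted where the letters TTCCCGC, the letters TTTGGCG or the letters TTTCGCG occurred, and TATAAA was searched for the TATA box. CCAAT was in 70.5% of the 44 windows against 37.4% of all 32851 windows, and the CHR letters were in 38.6% against 17.9%. E2F letters were in 25.0% against 6.72%, and TATAAA was in 2.27% against 13.6%. Among the 13690 windows of genes tested, the shares were 37.5% for CCAAT, 12.1% for CHR, 11.4% for E2F and 7.48% for TATAAA. A window can hold several motifs, and a match is a string of letters and not a measured binding site.

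The motifs were spread unevenly over the roles. The CHR letters were in 8 of 9 windows of the spindle and cytokinesis genes, in 5 of 8 of the chromosome and checkpoint genes and in 2 of 10 of the origin and fork genes (Mcm2 and Cdc45). E2F letters were in 0 of 9, 0 of 8 and 7 of 10 of these windows. The 16 genes with CHR letters had a median difference between the replicate numbers of -1.17 in Vehicle and -0.84 in EGCG, and the 24 with a window but without these letters had -0.61 and -0.48. The 10 genes with E2F letters had -0.54 and -0.09, and the 30 without had -1.15 and -0.82. For the CCAAT box the 29 genes with it had -0.89 and -0.68 and the 11 without had -1.07 and -0.55, so the order was not the same in Vehicle and EGCG. These are medians without a test. Stretches from 120 bases before to 30 after the start are shown for 4 CHR genes that cover a wide to a narrow gap between replicate numbers (Kif23, Prc1, Cenpf and Cdc20) and for 2 E2F genes at nearly the same level in all libraries (Mcm6 and Rrm1), with CCAAT, which reads as ATTGG on the opposite strand, and the CHR or E2F letters in capitals.
Kif23: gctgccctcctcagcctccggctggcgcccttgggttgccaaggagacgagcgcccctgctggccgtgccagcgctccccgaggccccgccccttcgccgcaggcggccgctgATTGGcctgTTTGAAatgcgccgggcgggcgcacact
Prc1: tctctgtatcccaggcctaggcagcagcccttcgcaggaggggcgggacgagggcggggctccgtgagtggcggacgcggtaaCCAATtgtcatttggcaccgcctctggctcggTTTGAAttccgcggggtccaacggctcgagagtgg
Cenpf: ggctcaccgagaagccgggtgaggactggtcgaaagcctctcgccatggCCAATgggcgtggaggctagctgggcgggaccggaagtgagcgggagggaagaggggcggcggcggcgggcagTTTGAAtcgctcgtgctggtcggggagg
Cdc20: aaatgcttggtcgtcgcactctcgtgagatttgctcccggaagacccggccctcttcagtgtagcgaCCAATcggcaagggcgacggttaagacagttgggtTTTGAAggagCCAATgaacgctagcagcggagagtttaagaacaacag
Mcm6: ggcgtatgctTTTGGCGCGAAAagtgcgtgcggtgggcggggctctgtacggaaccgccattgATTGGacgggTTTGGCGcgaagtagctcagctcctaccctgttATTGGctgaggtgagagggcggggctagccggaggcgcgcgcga
Rrm1: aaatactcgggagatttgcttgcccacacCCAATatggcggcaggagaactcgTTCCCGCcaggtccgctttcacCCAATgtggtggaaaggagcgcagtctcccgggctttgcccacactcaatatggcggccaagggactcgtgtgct
They lie at chr9:61946770-61946919 (minus strand, Kif23), chr7:80294331-80294480 (plus, Prc1), chr1:189688057-189688206 (minus, Cenpf), chr4:118437314-118437463 (minus, Cdc20), chr1:128359676-128359825 (minus, Mcm6) and chr7:102441575-102441724 (plus, Rrm1) of GRCm38.p6. In Kif23 the CHR letters begin at base 3 after the start and the CCAAT box at -7, and in Cenpf they begin at base 3 and -71. In Prc1 the CCAAT box begins at -37 and the CHR letters at -5, and in Cdc20 the CHR letters at -18 lie between CCAAT boxes at -53 and -8. Kif23 and Cdc20 both hold the pair of motifs close to the start. In Vehicle they differed between the replicate numbers by -3.15 and -0.30, and any part of the motifs in this was not tested. The value for Cdc20 is uncertain, as it had 53 to 89 counts per library and overlaps the far more highly counted Elovl1. Mcm6 holds E2F letters at -110, -105 (these overlap) and -47, and Rrm1 at -67.

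Other cell cycle genes outside the 50 gave a similar picture. Of 40 genes of DNA replication, 49 of mitosis, 20 of G1 control and 16 p53 targets, all were tested. In edgeR without the block 0 of these genes had an unadjusted P under 0.05, where only 0.116% of all genes tested did. Their median log2 fold changes were -0.01, 0.00, 0.01 and 0.05, against 0.01 over all genes tested. With the block 3 of the 125 had an unadjusted P under 0.05 (2.40%), all higher with EGCG. Of the 13811 genes tested, 444 had such a P in either direction, and 2.12% were called higher. None of the 3 had an adjusted P under 0.1. They were Cdkn1c, the CDK inhibitor p57 (0.46, P of 0.0272), Rbl1, the retinoblastoma relative p107 (0.20, P of 0.0332), and the p53 target Plk2 (0.15, P of 0.0271). The genes with the next smallest P in the blocked fit included Cdk6 and Pkmyt1 of G1 control (0.13, P of 0.0736 and -0.64, P of 0.155), Sesn1 and Zmat3 among the p53 targets (0.26, P of 0.0567 and 0.15, P of 0.101), Rfc3 and Pole2 of DNA replication (-0.21, P of 0.119 and -0.25, P of 0.236) and Smc2 and Kif15 of mitosis (0.12, P of 0.196 and 0.41, P of 0.221).

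Between the replicate numbers, 11 of the 49 mitosis genes were lower in replicate 2 by more than 1 in both treatments. So were 0 of the 40 replication genes and 3 of the 20 G1 control genes (Cdkn1c, E2f2 and Wee1). Some of these rest on few counts in Vehicle 2 and EGCG 2, such as Spc24 (1 and 3), Cdc25c (3 and 3) and Kif14 (5 and 6) of mitosis. E2f2 had 5 counts in Vehicle 2. Among the 16 p53 targets this held for 1 (Eda2r), and over all genes tested it held for 7.73%. Of all 125, the p53 target Sesn1 was the only gene higher by more than 1 in both (4.31% of all genes tested were). Its differences were 1.47 in Vehicle and 1.06 in EGCG. The mitosis list had a median difference of -0.88 in Vehicle and -0.52 in EGCG, and the replication list -0.28 and -0.26. Dlgap5, a spindle protein gene, had 298, 301, 88 and 166 counts in Vehicle 1, EGCG 1, Vehicle 2 and EGCG 2 (9.08, 9.39, 2.40 and 3.01 CPM). Cdkn1c was at 39.0, 44.8, 4.34 and 7.70 CPM, a gap between the replicate numbers of -3.15 in Vehicle and -2.53 in EGCG. An inhibitor of the cycle was thus among the genes with the widest gaps, beside motors and cyclins of mitosis.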

How the data were processed

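RNA of primary microglia was sequenced as strand-specific poly-A libraries, 2 with EGCG and 2 with Vehicle. The authors deposited raw counts per gene, whole numbers without normalization, in 1 table per replicate number. Per the labels and methods, reads were aligned with HISAT2 to GRCm38.p6. The counting program, its strand setting and its handling of reads that match several genes are not given in the sources used here. Conditions came from the sample labels, and the table of each replicate number from the study's sample sheet.

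Tables were joined on the Ensembl identifier (54532 genes, 22046 of them protein-coding), and 697 and 329 loci without one were left out. Protein-coding genes whose counts in the 4 libraries summed to 10 or more were tested two-sided in R 4.3.3 with edgeR 4.0.16 (TMM, quasi-likelihood F test, treatment only), with Benjamini-Hochberg adjustment over all 13811, and with DESeq2 1.42.0 as an alternative. Thresholds were an unadjusted P under 0.05 and an adjusted P under 0.1. Differences in log2 CPM used a prior count of 2. Values printed as counts are not scaled to library size, and EGCG 2 was the deepest library. RPKM used the gene length column of the files. A count of 3 in a library equals 0.0544 to 0.0936 CPM, and intervals and floors cover counting error only. The scripts were checked on simulated counts.

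Same-numbered libraries share a deposited table and deviated together, as the r = 0.64 in the report shows, so a fit with a block for the replicate number stands beside the fit without it. Pseudogene copies were sought with BLAST 2.17.0 at 90% identity over 200 bases. The members, their roles and the lists of other genes were chosen with earlier results of these data known. Values in every library were printed for the most abundant members of each role, the CDK inhibitors, members past the threshold, those with the widest gaps between replicates and those with under 10 counts in a library, and a few others of the 50 as well. Dlgap5, E2f2, Wee1, Eda2r, Spc24, Cdc25c, Kif14 and Incenp were named after their values were seen. Alternatives covered the test, the scaling, the filter, gene classes, the block and leaving out each library.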

Additional observations from a re-analysis of the deposited data

How the results depend on the processing

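The count of 0 of 50 genes at an unadjusted P under 0.05 was the same in DESeq2, under 3 other scalings, without a filter, with 10 counts required in every library, with all gene classes and without any 1 library. It changed to 2 in edgeR with the replicate block, which also took the other cell cycle genes from 0 to 3 of 125 and all genes tested from 16 to 444. The block changed no other call among the 50 genes, and 0 had an adjusted P under 0.1 in any of these fits. The median log2 fold change of the 50 genes, 0.05 in the main analysis, ran from 0.02 to 0.08 under the alternatives that kept all libraries. Leaving out 1 library moved it to between -0.34 (without Vehicle 2) and 0.47 (without Vehicle 1), with -0.25 without EGCG 1 and 0.31 without EGCG 2. Each of these fits has 1 replicate number in a group, so the difference between the replicate numbers enters the fold change. The changes of sign are therefore no measure of how steady the difference between EGCG and Vehicle was. The count of genes that differed between replicate numbers by more than 1 in both treatments was 15 in the main analysis, 13 to 16 under other scalings and prior counts, and 27 with a limit of 1.5-fold in place of 1 on the log2 scale. With 10 counts required in every library, an alternative chosen after seeing the data, it was 13 of 47 genes (27.7%, against 5.77% of all genes). Scaling by total counts alone shifted the median difference between the EGCG libraries over all genes to 0.11. Among the fits of single genes, 460 values kept within the spread between replicates and on their side of the threshold, 38 moved further, all without 1 library, and 2 became smaller than 0.05 in P, for Ccnd1 and Pcna with the replicate block. Depth limits Cenpf, Tk1 and Nusap1 most, which had under 10 counts in Vehicle 2.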
